A study of Mus musculus with 3 samples.

Results

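Cells make cholesterol and fatty acids from acetyl-CoA, and 31 mouse genes of these routes and of their SREBP regulators were examined in LSK cells. They comprise 6 enzymes of the mevalonate pathway, 11 enzymes from squalene to cholesterol, 5 SREBP regulators, 8 enzymes of fatty acid synthesis and the sterol carrier gene Stard4. Members were taken by name from this list, and where a gene had several probe sets, the one brightest on average over the 3 arrays, among those annotated to 1 gene, was used. All 31 had a probe set, among 18194 named genes on the array, and all 31 reached the floor described next on at least 1 array, as did 12597 of all named genes. The floor was a signal of 110.4, the median of all signals, and lower signals were set to it before log2 was taken.

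LSK cells are the marker-defined fraction of mouse marrow that holds blood stem cells and multipotent progenitors. There was 1 Affymetrix array for each of 3 genotypes, namely wild type (WT), p53 -/- (p53 KO) and p53 -/- Mef -/- (DKO), so the mutant arrays share the loss of p53. Strain, age, the alleles used and the number of animals behind each array are not given in the sources used here. With no replicates, no difference below has an error or a test, and each compares a pair of arrays, not a pair of genotypes.

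In the mevalonate pathway, HMG-CoA is turned into mevalonate and then into isoprenoids, which are joined into squalene and closed into sterol rings that end as cholesterol. SREBP transcription factors control these enzymes and those that build and desaturate fatty acids. When sterols are scarce, Scap escorts SREBP out of the endoplasmic reticulum for cleavage, and when sterols are plentiful Insig proteins hold the pair back. SREBP acts beside NF-Y, which binds CCAAT boxes, and Sp1, which binds GC boxes.

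The start regions of 5 members discussed below are shown, and no signal difference below was computed from these regions. Hmgcs1, Idi1, Cyp51 and Insig1 were highest on the array labelled DKO, and Tm7sf2 was highest on the WT array. Each line gives the 250 bases before the annotated start, 5′ to 3′ on the gene's strand, from RefSeq (GRCm38.p6). Capitals mark the SREBP element TCACNCCAC, the CCAAT box CCAAT and the GC box GGGCGG, searched on both strands, with no overlap between motifs in these 5 windows. The windows lie at chr13:119690101-119690350 (plus strand) for Hmgcs1, chr13:8885356-8885605 (plus) for Idi1, chr5:4104698-4104947 (minus) for Cyp51, chr5:28071162-28071411 (plus) for Insig1 and chr19:6067851-6068100 (minus) for Tm7sf2.
Hmgcs1: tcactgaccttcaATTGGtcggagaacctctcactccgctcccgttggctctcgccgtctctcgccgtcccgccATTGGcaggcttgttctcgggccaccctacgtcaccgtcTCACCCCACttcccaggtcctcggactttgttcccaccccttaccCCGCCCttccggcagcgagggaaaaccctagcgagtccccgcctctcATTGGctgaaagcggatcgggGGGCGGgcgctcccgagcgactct
Idi1: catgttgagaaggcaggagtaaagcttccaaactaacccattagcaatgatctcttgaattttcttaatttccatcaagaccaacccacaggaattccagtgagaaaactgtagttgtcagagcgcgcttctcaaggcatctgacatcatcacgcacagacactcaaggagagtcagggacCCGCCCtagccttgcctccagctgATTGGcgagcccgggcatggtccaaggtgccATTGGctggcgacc
Cyp51: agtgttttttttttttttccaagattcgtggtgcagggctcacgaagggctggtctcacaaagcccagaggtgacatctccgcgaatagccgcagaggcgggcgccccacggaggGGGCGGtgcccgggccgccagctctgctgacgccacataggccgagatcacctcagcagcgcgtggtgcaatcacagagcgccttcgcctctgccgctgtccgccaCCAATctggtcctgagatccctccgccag
Insig1: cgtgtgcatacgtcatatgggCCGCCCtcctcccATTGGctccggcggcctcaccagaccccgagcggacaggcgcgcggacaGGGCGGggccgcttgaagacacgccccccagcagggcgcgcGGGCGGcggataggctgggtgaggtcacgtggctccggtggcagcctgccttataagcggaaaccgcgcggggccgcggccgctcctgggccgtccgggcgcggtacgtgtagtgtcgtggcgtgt
Tm7sf2: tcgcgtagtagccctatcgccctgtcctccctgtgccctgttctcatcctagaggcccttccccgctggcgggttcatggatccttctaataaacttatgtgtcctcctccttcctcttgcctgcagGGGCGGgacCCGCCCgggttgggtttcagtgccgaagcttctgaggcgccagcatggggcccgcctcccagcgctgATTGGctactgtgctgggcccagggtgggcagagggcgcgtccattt

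Of the 31 members, 24 had such a window in the RefSeq table. A CCAAT box was found in 19 of the 24 (79.2%), against 37.5% of all 27025 genes in the table, and a GC box in 20 (83.3%), against 35.4%. The SREBP element as spelled was found in Hmgcs1 only, 1 of 24 (4.17%), against 1.22% of all genes. All 24 were measured on these arrays, while genes of the table were counted whether or not they were measured. The background is thus unlike the members, and shares among measured genes were not computed. Tm7sf2 also carries a CCAAT box and a pair of GC boxes. Its signal on the array labelled DKO was lower than on WT (log2 difference -0.95) but higher than on p53 KO (0.40). The part of these letters in the signal differences was not tested. A match is a description of the letters, and a missing match says only that they are not in this window.

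Kit, the receptor that defines the sort, had signals of 4996 on WT, 2522 on p53 KO and 4873 on DKO. Ly6a, which encodes the Sca-1 marker, was not analysed here, nor was the level of p53. Elf4, the gene of Mef, was below the floor on WT by both its probe sets (57.4 and 74.3), at 182 and 173 on p53 KO, and at 151 and 129 on DKO. By both probe sets its signal on the array labelled DKO was lower than on p53 KO (log2 differences -0.27 and -0.42) but exceeded that on WT. These signals lie near or below the floor. The excess over WT goes against the label if these probes lie in the deleted part. Their place in the gene was not analysed here, and every direction given for DKO is that of the array so labelled. Each array had a 2% trimmed mean of 500.0, but the median signal was 98, 105 and 129, and scaling to the same median instead moved the median of all genes from 0.07 to -0.26 (log2) when DKO was compared with WT. When it was compared with p53 KO the move was from 0.11 to -0.13. The share of 2-fold calls over all genes that were higher moved with scaling too. For p53 KO against WT it was 67.1% (53.5% with the same median). It was 62.8% when DKO was set against WT (49.4% with quantile normalization, 47.0% with cyclic loess, 15.8% with the same median), and 40.9% when set against p53 KO (26.5% with cyclic loess, 13.5% with the same median).

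Few members differed by much between any pair of arrays, while a small shift ran through many of them. Tm7sf2 was the only member at least 2-fold lower, and Scd1 the only one at least 2-fold higher, on p53 KO than on WT. On the array labelled DKO most members of the mevalonate pathway and of fatty acid synthesis had higher signals than on p53 KO. None of them was called 2-fold higher, though for Mvk only a lower bound was measured. Of all genes at or over the floor on all arrays, 58.0% were also higher on DKO than on p53 KO. With the arrays scaled to the same median, 15 of the 29 members over the floor were higher there.

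For p53 KO against WT, 1 of 31 members was at least 2-fold higher (3.23%; all measured genes 6.51%) and 1 at least 2-fold lower (3.23%; 3.19%). For DKO against WT, 0 members were 2-fold higher (all measured genes 5.22%) and 0 were 2-fold lower (3.10%). For DKO against p53 KO, 0 were 2-fold higher (4.10%) and 1, Scd1, was 2-fold lower (3.23%; 5.93%). At this threshold no count of members stood out from the share of all genes.

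With a threshold of 1.5-fold, 4 members were higher and 5 lower on p53 KO than on WT (12.9% and 16.1%), where all measured genes gave 15.4% and 12.5%. For DKO against WT, 4 were higher and 3 lower (12.9% and 9.68%), beside 17.1% and 9.52%. For DKO against p53 KO, 7 were higher and 1 lower (22.6% and 3.23%), beside 17.0% and 12.2%. In the comparisons with WT these shares lay near those of all genes. Between DKO and p53 KO the share higher was above that of all genes and the share lower was below it, with no test. Of the 7 higher, Insig1 (0.587) and Scd2 (0.589) barely passed the cut of 0.585 on the log2 scale. Mvk is a bound near the floor, so the share higher hangs on a few members at the cut. Between 22 and 24 of the 31 members stayed within 1.5-fold in each comparison.

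By sign alone, over the 29 members at or over the floor on all 3 arrays, 8 were higher and 21 lower on p53 KO than on WT (27.6% higher), while 47.5% of the 10089 genes at or over the floor on all arrays were higher. For DKO against WT, 18 of 29 were higher (62.1%; all such genes 53.5%). For DKO against p53 KO, 21 of 29 were higher (72.4%; 58.0%). With the arrays scaled to the same median these counts were 7, 5 and 15, so the majority for DKO over WT turned with that scaling, and that over p53 KO narrowed to 15 of 29. That scaling moved all genes as well, to medians of -0.08, -0.26 and -0.13, and the share of all genes higher under it was not computed. Relative to those medians the members' median lay at -0.21, -0.01 and 0.22. The highest of the 3 signals fell on DKO for 14 of the 29 members (all such genes 38.4%), and the lowest fell on p53 KO for 18 (39.6%).

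Comparing p53 KO with WT, the 31 members had a median log2 difference of -0.18. DKO gave a median of 0.13 when set against WT and 0.37 when set against p53 KO. Over all measured genes the medians were 0.00, 0.07 and 0.11. The members' median thus lay 0.18 under, 0.06 over and 0.26 over that of all genes. The last of these ranged from 0.12 (mean of all probe sets, or floor at the 75th percentile) to 0.24 over the alternatives, and the 0.06 became -0.04 with the mean of all probe sets. The 3 comparisons share arrays, so a shift of the p53 KO array alone would move the first and the last in opposite directions, and no spread between arrays is known against which to set them.

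**Figure D1:**
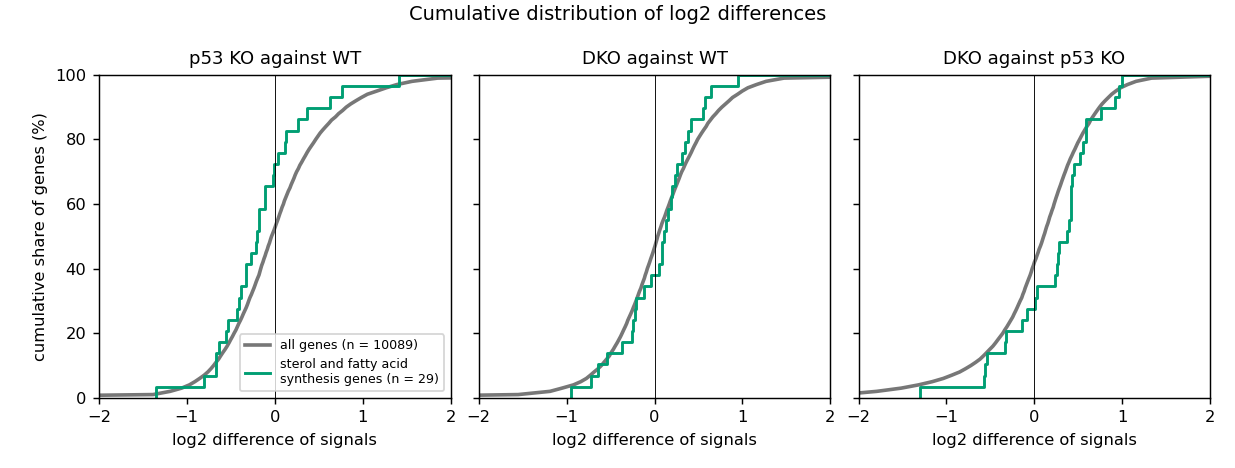
Cumulative share of genes (%) against the log2 difference of signals, for the 10089 genes at or over the floor on all 3 arrays (grey) and the 29 members among them (green), in 1 panel per comparison. The green curve lies left of the grey one over most of its range for p53 KO against WT and right of it for DKO against p53 KO, with medians of -0.20 and 0.37 for the members and -0.04 and 0.10 for all genes.

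The mevalonate pathway begins with Hmgcs1, HMG-CoA synthase, whose signals were 3489 on WT, 3576 on p53 KO and 5102 on DKO. The WT and p53 KO values were close (log2 difference 0.04), and DKO stood above both, by 0.55 over WT and 0.51 over p53 KO. All 3 further measured probe sets of Hmgcs1 were also higher on DKO, and the brightest of them gave 1115, 1234 and 1646 in the order WT, p53 KO, DKO.

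Idi1, which isomerises the isoprenoid unit, had signals of 2255 on WT, 1680 on p53 KO and 3352 on DKO. Its difference between DKO and p53 KO was 0.997 on the log2 scale (1.996-fold), just under the 2-fold threshold. The further probe set of Idi1 gave 1643, 1399 and 1594, a difference of 0.19, so the size rests on the probe set used.

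Mvk, mevalonate kinase, was below the floor on WT (84) and p53 KO (46.1) and at 171 on DKO, at least 0.63 higher there than on either. Mvd, the decarboxylase that ends the mevalonate steps, was below the floor on WT (96.1) and at 173 and 191 on p53 KO and DKO, at least 0.65 and 0.79 higher. Both lie near the floor, where signals are least certain. Pmvk, phosphomevalonate kinase, had signals of 602, 481 and 657, and Fdps, which makes farnesyl pyrophosphate, had 279, 210 and 272 on WT, p53 KO and DKO.

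All 6 mevalonate genes were thus higher on DKO than on p53 KO, as were 58.0% of all genes over the floor on all arrays. With quantile, cyclic loess or same-median scaling Mvd turned, which left 5 of 6 mevalonate genes higher. The 5 genes with measured differences ranged from 0.14 (Mvd) to 0.997 (Idi1), and Mvk, bounded at 0.63, reached 1.89 when the floor was set at the 25th percentile. Over all 6 the median was 0.48, or 0.19 with the same-median scaling. Against WT, 5 of 6 were higher on DKO (53.5% of all genes over the floor on all arrays), with Fdps at -0.04. Between p53 KO and WT the same genes were split, with 2 higher, 3 lower and Mvk below the floor on both.

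**Figure D2:**
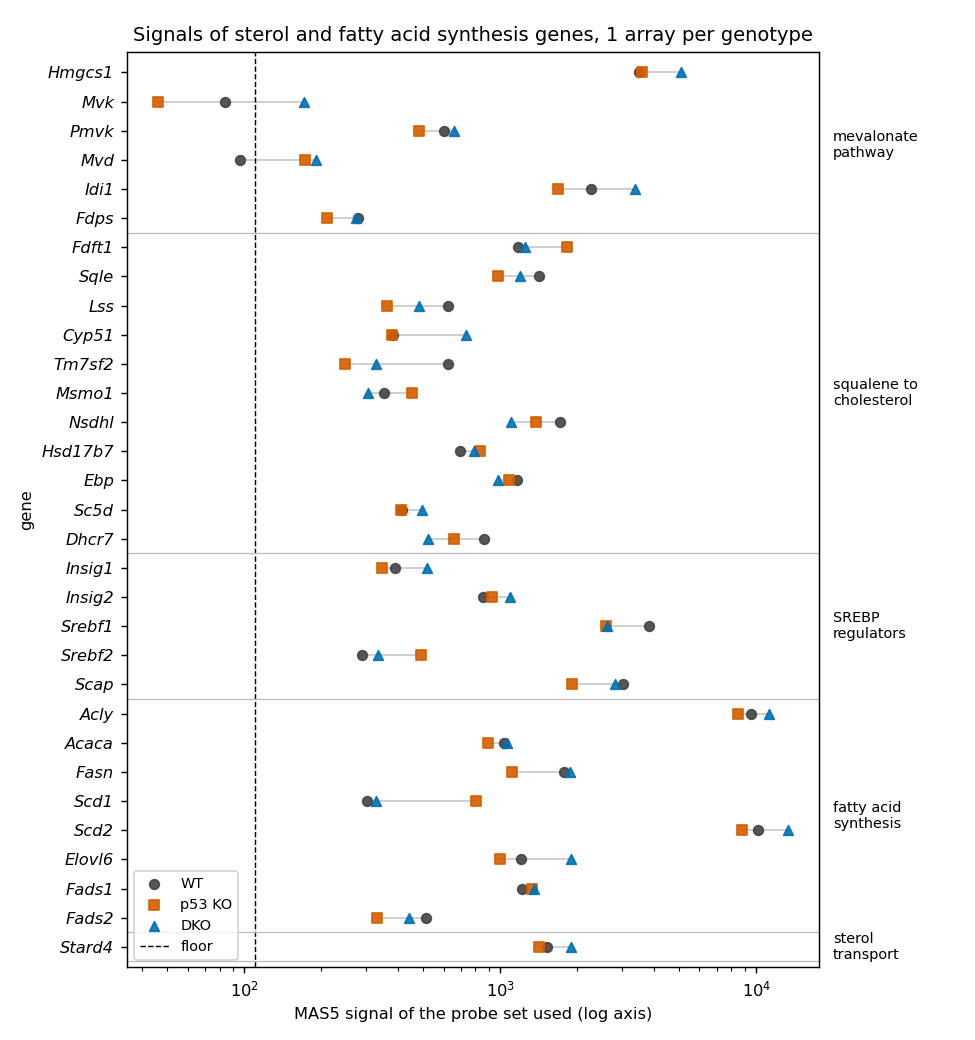
Signal of the probe set used (log axis) for each of the 31 members, by role, on the WT (circles), p53 KO (squares) and DKO (triangles) arrays, with 1 array per genotype and the floor of 110.4 as a dashed line. Mevalonate genes have the DKO signal highest or close to it, Tm7sf2 has its highest signal on WT (628) and Scd1 on p53 KO (803).

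From squalene onward the enzymes had no common direction. Cyp51, the demethylase that acts on lanosterol, had signals of 381 on WT, 378 on p53 KO and 734 on DKO, the WT and p53 KO values being almost equal. DKO lay 0.95 above WT and 0.96 above p53 KO on the log2 scale. A further Cyp51 probe set gave 274, 386 and 434, which places p53 KO close to DKO instead.

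Tm7sf2, a sterol reductase that acts after Cyp51, ran the other way at 628 on WT, 247 on p53 KO and 326 on DKO. Both mutant arrays were low, with log2 differences from WT of -1.34 and -0.95, and it had no second probe set. With the floor at the 75th percentile of signals, both mutant signals were under it, and the log2 difference was bounded at -0.49 or lower.

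Lss, lanosterol synthase, gave 626, 359 and 483 on WT, p53 KO and DKO by the probe set used. Its further measured probe set gave 202, 155 and 339, so p53 KO was lowest by both, while DKO was below WT by the one (-0.38) and above it by the other (0.75). Sqle, the epoxidase that precedes it, had 1419, 983 and 1191, again lowest on p53 KO. Fdft1, squalene synthase, was the exception at this stage, with 1174 on WT, 1819 on p53 KO and 1250 on DKO, and its further measured probe set gave 282, 482 and 498.

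Among the last enzymes, Dhcr7, a terminal reductase, had 861, 659 and 523, and Nsdhl, a sterol dehydrogenase, had 1718, 1375 and 1103. Both were highest on WT and lowest on DKO, with differences from WT of -0.72 and -0.64 on the array labelled DKO. Ebp, a sterol isomerase, followed the same order over a narrower range, at 1163, 1077 and 977.

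Hsd17b7 (693, 836 and 788), Sc5d (415, 409 and 495) and the methylsterol oxidase gene Msmo1 (350, 452 and 304) stayed within 1.5-fold between any pair of arrays by the probe sets used. The further probe sets of Sc5d disagreed, with differences of -0.60 and 0.53 for p53 KO against WT. Over the 11 enzymes, 4 were higher and 7 lower on DKO than on WT (median -0.25). Against p53 KO, 5 were higher and 6 lower on DKO (-0.09). On p53 KO 3 were higher and 8 lower than on WT (-0.11). In the same order, 53.5%, 58.0% and 47.5% of all genes over the floor on all arrays were higher. The enzymes' median for DKO against p53 KO was 0.16 with only probe sets whose names carry no _s_, _x_ or _a_ suffix. Its sign thus depends on the probe sets taken.

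Among the regulators, Insig1, which is itself a target of SREBP, had signals of 388 on WT, 344 on p53 KO and 516 on DKO, with DKO 0.59 above p53 KO and 0.41 above WT. Insig2, its relative, had 859, 932 and 1092, but a further probe set gave 294, 449 and 287, highest on p53 KO, and with the mean of all probe sets DKO was no longer above p53 KO (-0.10). Scap, the escort protein, had 3029, 1901 and 2796, with p53 KO low (-0.67 from WT) and DKO near WT (-0.12). Each of these stayed within 2-fold.

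Srebf1, whose products favour fatty acid genes, had 3814 on WT, 2596 on p53 KO and 2613 on DKO. Both mutant arrays lay below WT by similar amounts (-0.56 and -0.55), and no further probe set was measured. Srebf2, whose product favours sterol genes, gave 289, 489 and 332 by the probe set used, highest on p53 KO. Its further probe set gave 263, 99.8 and 220, lowest on p53 KO and below the floor there, so the pair of probe sets differed by 2.01 on the log2 scale for p53 KO against WT. No direction of Srebf2 can be read from these arrays.

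In fatty acid synthesis, Fasn, fatty acid synthase, had signals of 1768 on WT, 1111 on p53 KO and 1874 on DKO. The p53 KO array was low, by -0.67 from WT, and DKO was 0.75 above it and close to WT (0.08). Elovl6, which extends palmitate, had 1210, 1000 and 1887, with DKO 0.64 above WT and 0.92 above p53 KO, and both further measured probe sets were higher on DKO than on p53 KO as well, by 0.68 and by at least 1.003, since the second was below the floor on p53 KO.

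Acly, which makes cytosolic acetyl-CoA from citrate, had 9576, 8459 and 11253, and the rate-limiting carboxylase gene Acaca had 1033, 892 and 1066. Both were lowest on p53 KO and highest on DKO, by small amounts (0.41 and 0.26 between those arrays), while a further Acly probe set (1360, 978 and 1230) was highest on WT. The desaturase gene Fads2 had 512, 330 and 440. It was lower on p53 KO than on WT by all 3 measured probe sets (-0.62 to -0.68, the -0.62 being a bound with p53 KO below the floor), but they did not share a direction for DKO against p53 KO. By contrast, Fads1, the other front-end desaturase gene, had 1217, 1327 and 1353, all within 0.15, and a further probe set gave 270, 335 and 263, highest on p53 KO.

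The paired stearoyl-CoA desaturase genes differed on the p53 KO array. Scd1 had signals of 302 on WT, 803 on p53 KO and 327 on DKO, so p53 KO stood alone, 1.41 above WT (2.66-fold) and 1.30 above DKO (a log2 difference of -1.30 for DKO against p53 KO). Its further probe set was also highest on p53 KO, with less contrast, at 182, 238 and 150. With the mean of both probe sets Scd1 no longer reached 2-fold, with log2 differences of 0.90 (p53 KO over WT) and -0.98 (DKO over p53 KO).

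Scd2 had 10140 on WT, 8808 on p53 KO and 13251 on DKO, lowest where Scd1 was highest, while both were higher on DKO than on WT (0.39 for Scd2 and 0.11 for Scd1). Its further measured probe set gave 174, 129 and 127 and did not place DKO above p53 KO. All genes of this route but Scd1, 7 of 8, were higher on DKO than on p53 KO (median of all 8 0.41). The share over all genes at or over the floor on all arrays was 58.0%. With the same-median scaling 5 of 8 genes of the route were higher (median 0.13), Acaca and Fads1 having turned. Fads1 also turned with cyclic loess and with the mean of all probe sets. In the same route 2 of 8 were higher and 6 lower on p53 KO than on WT (-0.21), where 47.5% of all such genes were higher.

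Stard4, which encodes a cholesterol carrier and is a known sterol-responsive gene, had 1524 on WT, 1416 on p53 KO and 1890 on DKO. All 3 of its probe sets were highest on DKO, with differences from WT of 0.31, 0.37 and 0.49.

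**Figure D3:**
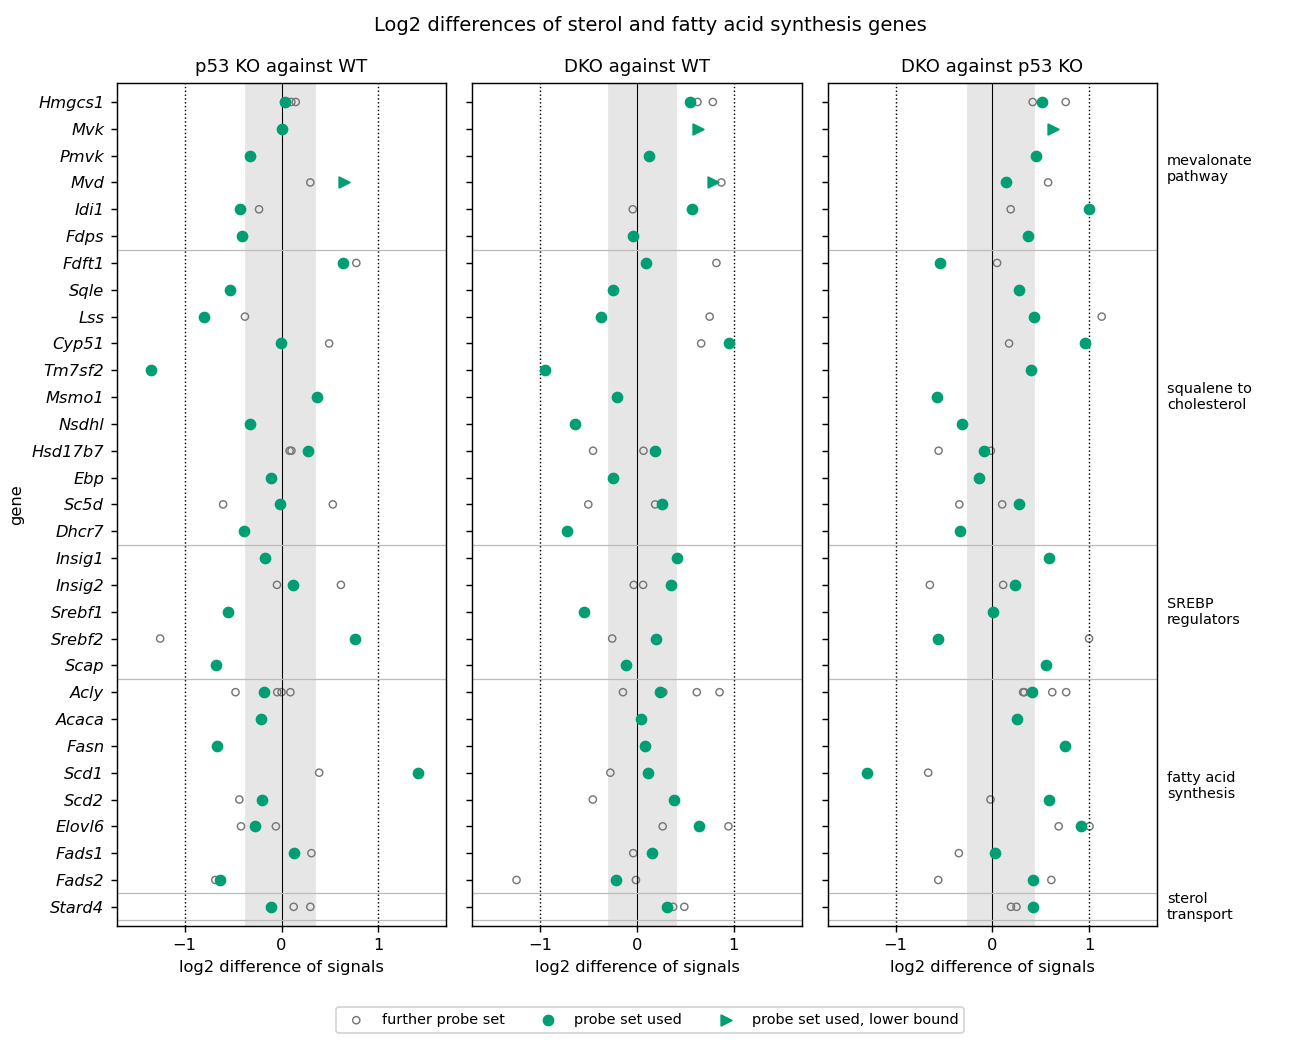
Log2 difference of signals for each member in the 3 comparisons, from the probe set used (filled; a triangle where 1 array was below the floor) and from further measured probe sets (open). Dotted lines mark 2-fold and the grey band holds the middle 50% of all genes over the floor on all arrays. Scd1 and Tm7sf2 lie outside the dotted lines for p53 KO against WT, and Srebf2 has probe sets on opposite sides.

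Probe sets of a gene on the same arrays show how far a difference depends on the probe set taken. They do not show how far arrays of a genotype would differ. The members had 72 single-gene probe sets, of which 59 reached the floor on at least 1 array, and 17 members had more than 1 such set. Of the 28 further measured probe sets, 20 pointed the same way as the probe set used when p53 KO was compared with WT. For DKO this held for 18 in the comparison with WT and 21 in that with p53 KO. The median gap between them was 0.20, 0.34 and 0.30 on the log2 scale. The probe sets used for Acly, Fdft1 and Hsd17b7 (suffix _x_) and for Lss and Mvd (suffix _s_) are of types that can bind more than 1 transcript. Those used for Hmgcs1, Pmvk, Idi1, Msmo1, Insig2 and Srebf1 carry the suffix _a_, which the alternative without suffixes also left out.

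Beyond these 31 genes, a list of 23 other sterol and lipogenic genes had 18 with a single-gene probe set, of which 14 were measured. On p53 KO 0 of the 14 were past 2-fold above WT and 2 were past 2-fold below it. Among all measured genes these shares were 6.51% and 3.19%. Acss2, which makes acetyl-CoA from acetate, differed most, with signals of 3587 on WT, 856 on p53 KO and 1575 on DKO (-2.07 and -1.19 from WT). A further Acss2 probe set gave 1260, 554 and 629, again highest on WT and lowest on p53 KO. Both mutant arrays thus lay below WT, as for Tm7sf2.

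Mcat, the malonyl transferase of mitochondrial fatty acid synthesis, had 906, 319 and 706, low on p53 KO only. Acsl5, which activates fatty acids, had 12432, 6643 and 5642, and the citrate carrier gene Slc25a1 had 3023, 1671 and 1979, both highest on WT. Against WT, on DKO, 0 genes of the list were 2-fold higher and 2 lower, beside 5.22% and 3.10% of all measured genes. For DKO against p53 KO 1 was higher and 0 lower, beside 4.10% and 5.93%.

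The 16 measured genes of SREBP processing, which include the site proteases Mbtps1 and Mbtps2 and the NF-Y subunits, had 0 members past 2-fold in any comparison, with medians of -0.07 (p53 KO over WT), -0.12 (DKO over WT) and -0.0048 (DKO over p53 KO). Of 13 sterol export and LXR genes, Cyp27a1, a sterol hydroxylase, was 2-fold higher on p53 KO (159 on WT, 375 and 271 on p53 KO and DKO). Npc1, which moves cholesterol out of lysosomes, was 2-fold higher on DKO (150, 223 and 334). In the same order of comparisons the list medians were 0.19, 0.22 and 0.02.

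Isoprenoid branch genes (12 measured) and fatty acid oxidation genes (14 measured) had 0 members past 2-fold. Their medians were -0.22 and -0.20 for p53 KO against WT and 0.33 and 0.31 for DKO against p53 KO, values like those of the 31 members (-0.18 and 0.37). The fatty acid synthesis genes themselves had -0.21 and 0.41, close to those of the oxidation genes.

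In both comparisons that include p53 KO, monocyte and macrophage, granulocyte and B lymphoid markers had medians larger in size than any lipid list. For DKO against WT their medians were -0.06, -0.47 and 0.57, beside 0.56 for the mevalonate genes and -1.62 for erythroid markers. Of 10 monocyte and macrophage markers, 8 were at least 2-fold higher on p53 KO than on WT, with summed signals of 23546 on WT, 59888 on p53 KO and 24615 on DKO. Summed signals of 12 granulocyte markers were 126017, 223004 and 106709, and those of 9 B lymphoid markers were 2140, 8072 and 3383. The p53 KO array, on which Scd1 was high and most other members low, thus had the highest sum for all 3 lineages. Single genes could differ, since Elane, Ctsg and Prtn3, 3 of the 12 granulocyte markers, were highest on DKO (Ctsg at 5071, 10135 and 14770).

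The erythroid sum was also highest on p53 KO, at 123791, 139046 and 38014 over 14 measured genes, and low on DKO, with 10 of them at least 2-fold lower on DKO than on WT. Between p53 KO and WT the list was split, with 8 genes higher (3 of them 2-fold) and 6 lower. The lower ones include Klf1 (-0.51), Gata1 (-0.35) and Car1 (-1.42, the only one 2-fold lower), so the sum does not stand for every gene. Genes of G2 and mitosis summed to 81468, 114640 and 62043, and 8 measured LSK markers to 18457, 15618 and 28368. The LSK sum was thus lowest on p53 KO and highest on DKO, the order seen for 11 of the 29 members over the floor and for 20.1% of all genes over it. The median LSK marker was however 0.10 higher on p53 KO than on WT, so the sum, in which Kit weighs heavily, and the median differ in sign.

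Of the 9 named T and NK markers, Cd3e, Cd3g, Cd4 and Prf1 were below the floor on every array. The other 5 were all higher on p53 KO than on WT. Their median of 0.98 is the value of Cd3d (50.7, 217 and 20.4), a lower bound since Cd3d was below the floor on WT. Cd8a was higher by 0.16 only (254, 284 and 34.8). The others were Klrd1 (171, 540 and 333), Ccl5 (171, 610 and 30.2) and Nkg7 (1176, 1667 and 2724, highest on DKO). Below the floor on every array were also 6 of the 8 named hepatocyte and adipocyte markers, while Fabp4 reached 193 on p53 KO and Alb reached 127, 188 and 219 on WT, p53 KO and DKO. In bulk samples such as these, fewer cells of a type and less RNA per cell cannot be told apart. The part of cell make-up in the lipid gene differences was not tested.

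For actin, signal at the 3′ end exceeded that at the 5′ end by a factor of 8.29 on WT, 6.20 on p53 KO and 9.19 on DKO, and for Gapdh by 5.85, 6.61 and 5.90. Actin thus had its lowest ratio on p53 KO, the array where most members were lowest, and Gapdh its highest there. The part of RNA quality in the differences was not tested.

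**Figure D4:**
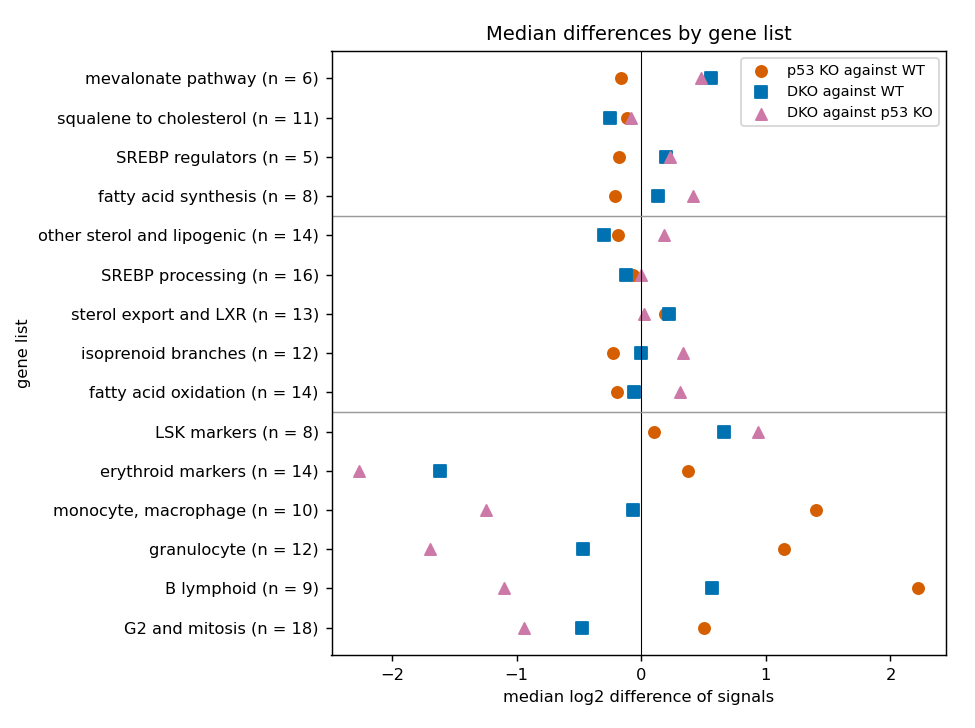
Median log2 difference of the measured genes of each list (n in parentheses) in the comparisons of p53 KO with WT (circles), DKO with WT (squares) and DKO with p53 KO (triangles), with the roles of the members on top, other lipid lists in the middle and markers of cell types and division below. Lipid lists lie between -0.30 and 0.56, while marker lists reach 2.22 (B lymphoid) and -2.26 (erythroid).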

How the data were processed

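The data are probe set signals from 3 mouse arrays, 1 per genotype, grouped by sample title. The submitters' processing notes name GCOS and MAS5, without versions. What was deposited is a linear signal intensity for each of 45101 probe sets, with a 2% trimmed mean of 500.0 on each array, so they already carry global scaling. No detection call was used, and the number of arrays limits the precision.

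Symbols came from the platform annotation, updated by Entrez ID through RefSeq (GRCm38.p6) for 34754 probe sets. 34958 probe sets had 1 symbol, 932 several and 9211 none in that table. A difference is the floored log2 signal of the array named first minus that of the other, and is a bound where 1 of them was below the floor. Calls were set at 2-fold.

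No test was made. The calculation was tested on simulated data in which only bright genes were changed, and by more than 2-fold. It therefore does not bear on small differences or on signals near the floor. Alternatives were quantile, cyclic loess (limma 3.58.1, 3 iterations) and same-median scaling, floors at the 25th and 75th percentiles, a pseudocount of 32 replacing the floor, the mean of all probe sets, probe sets with no _s_, _x_ or _a_ suffix, and a 1.5-fold threshold. Python 3.11.15 was used. Members and gene lists were chosen with earlier results of these data known. All members are named, and of each other lipid list up to 4 genes past 2-fold. Kit and Ly6a are named as markers of the sort. Slc25a1, the markers of T, NK, liver and fat cells and of granulocytes, and Mbtps1 and Mbtps2 were named after their values were seen.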

Additional observations from a re-analysis of the deposited data

How the results depend on the processing

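The members' median log2 difference kept its sign in all 8 alternatives with a value for p53 KO against WT (-0.29 to -0.11) and for DKO against p53 KO (0.085 to 0.37). With the arrays scaled to the same median it was 0.085 for DKO against p53 KO and -0.27 for DKO against WT, where the sign turned, because that scaling lowers all DKO signals. Counts of members past the threshold are small and moved with most choices. At 1.5-fold they were 4 higher and 5 lower for p53 KO against WT, 4 and 3 for DKO against WT, and 7 and 1 for DKO against p53 KO. The shares of all genes at that threshold are given above. Those 2-fold higher on DKO than on WT became 1 with the floor at the 25th percentile (all measured genes 11.3%). Those 2-fold lower became 1 with quantile normalization (3.77%) or cyclic loess (3.91%). They became 3 with the same median, where 8.56% of all measured genes were 2-fold lower, beside 9.68% for 3 of 31. For DKO against p53 KO, the 0 members higher became 1 with the 25th percentile floor (9.41%), the pseudocount (6.02%), quantile normalization (3.19%) or probe sets with no suffix (4.06%). The 1 lower became 0 with the 75th percentile floor (5.91%) or the mean of all probe sets (3.92%). For p53 KO against WT, the 1 higher became 0 under those same 2 settings (5.30% and 4.10%), and the 1 lower became 0 with the 75th percentile floor (2.97%). As 1 of 31 is 3.23%, moves of 1 member say little about the members as a set. The cause was not tested. Of 726 single member values under alternatives, 118 moved by more than 0.25 and 44 turned sign, 21 of them with the same median and 12 with the mean of all probe sets. They belong to 29 of the 93 pairs of member and comparison, such as Lss for DKO against WT (-0.77 to 0.75) and Srebf2 for p53 KO against WT (-0.25 to 0.76), and 0 of the 3 values past 2-fold turned. Counts over all genes moved by over 1.5 times under several settings, as for 2-fold higher on DKO than on WT (657; 201 with the same median, 1861 with the 25th percentile floor). Signals near the floor, such as those of Mvk and Mvd, limit what can be read. No paired analysis was possible because each genotype has 1 array.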
